A study of Mus musculus with 21 samples.

Results

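The genes described here build the sarcomere, the contractile unit of striated muscle, leaving aside the myosin heavy chains. They were taken by symbol from the deposited count table of mouse fibro-adipogenic progenitors (FAPs), mesenchymal cells of skeletal muscle that support repair and can form fat or fibrous tissue. All 43 listed genes were among the 55341 genes of the table, and 38 of them passed the expression filter together with 15240 genes in all. Both genotypes carried floxed Prdm16 alleles, written Prdm16Flox/Flox. The group called Prdm16 (Prdm16Flox/Flox::PdgfrαCre-ERT/+) also carried a tamoxifen-inducible Cre at Pdgfra, so that deletion depends on cells that express Pdgfra. The group called WT (Prdm16Flox/Flox::Pdgfrα+/+) lacked the Cre. Adult mice of both groups were given tamoxifen on 5 days in a row. Cardiotoxin, which destroys muscle fibres, was injected into the muscle 7 days later. FAPs sorted 5 days after injury were grown for 4 to 5 days, so the RNA is that of a culture. RNA came from 3 WT and 2 Prdm16 libraries. Domains of the repressive histone mark H3K9me2 came from 3 libraries of each genotype, and domains of the lamina protein LaminB1 from 1 of each. Whether a replicate is an animal of its own is not stated, so the p-values rest on a spread between samples that may be technical.

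In a sarcomere, thin filaments of actin, tropomyosin and troponin slide along thick filaments of myosin. The Z disc anchors the thin filaments, the M band links the thick ones, and titin spans from one to the other. FAPs do not form sarcomeres. Myoblasts, the muscle precursors that lie next to FAPs in the tissue, switch these genes on together when they leave the cell cycle and fuse into fibres.

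Library totals ranged from 5839587 to 10657791 counts. The targeted gene did not separate the labels. Prdm16 had 16.4, 13.5 and 5.51 CPM in WT replicates 1, 2 and 3. In Prdm16 replicates 1 and 2 it had 10.6 and 15.3 CPM. Here CPM is the count per 1e+06 of a library size scaled by the trimmed mean of M-values. Whether reads came from the deleted exons cannot be told from a count per gene. The authors' own comparison went against the labels of 2 libraries. Once WT replicate 3 and Prdm16 replicate 1 swapped groups, DESeq2 gave a p within 1% of that in the authors' deposited table for 6237 of 6237 genes, against 38 genes (0.609%) as labelled. The exchange also puts together the libraries low in 2 interferon-induced genes. Ifit3 had 490, 767 and 20.9 CPM in WT and 556 and 22.2 CPM in Prdm16. Rsad2 had 70.5, 80.1 and 5.13 CPM against 107 and 6.39 CPM. What sets these libraries apart was not tested. The library labelled Prdm16 replicate 2 held 372 counts of the Y-linked gene Ddx3y and the others 0 or 1. Xist, which female cells transcribe, had 335, 526 and 434 CPM in WT and 480 and 2.66 CPM in Prdm16. The 2 libraries labelled Prdm16 thus differ in sex and were not from the same mouse. The part of sex in the results below was not tested. Every direction below follows the labels, and results are also given without the 2 doubtful libraries and with them exchanged. FAP markers were present in all libraries, with Pdgfra from 471 to 950 CPM.

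Most sarcomere genes had higher values in both libraries labelled Prdm16 than in WT replicates 1 and 2, and most were also higher in the library labelled WT replicate 3. Summed over the 43 genes, the level was 1381, 1904 and 2746 CPM in WT replicates 1, 2 and 3 and 2559 and 3064 CPM in Prdm16 replicates 1 and 2. Without the tropomyosin genes Tpm1 and Tpm2, which many non-muscle cells also transcribe, the sums were 525, 795 and 1486 CPM in WT and 1604 and 1735 CPM in Prdm16. In bulk RNA, more cells that transcribe these genes and more transcript per cell cannot be told apart.

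As labelled, 37 of the 38 tested genes had a positive log2 fold change of Prdm16 over WT, against 50.1% of all genes tested. Their median log2 fold change was 0.83, beside a median of 0.00 over all genes. No sarcomere gene was called: by edgeR's quasi-likelihood test 0 of 15240 genes (0%) had an adjusted p under 0.05, with 378 at an unadjusted p under 0.05. DESeq2 and limma-voom also called 0 sarcomere genes. An unadjusted p under 0.05 with a higher Prdm16 value was found for 12 of the 38, against 1.11% of all genes, and for 0 with a lower value (2.48% of all genes in either direction). In 18 of the 38 both Prdm16 libraries lay above all 3 WT libraries, against 8.83% of all genes, and these 18 include the 12. With CPM of the unscaled library total the count was 15, against 7.91% of all genes. Every member had an edgeR adjusted p of 0.9996, so each unadjusted p below is a description.

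**Figure D1:**
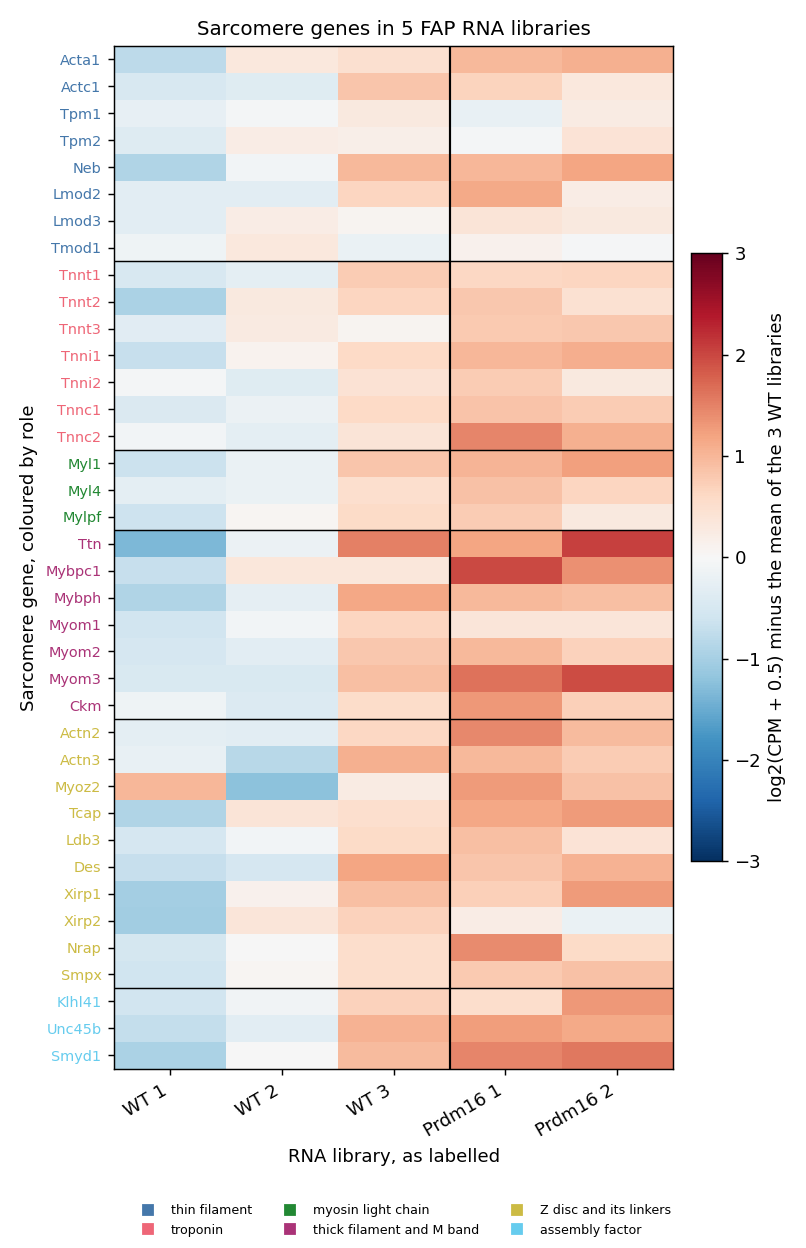
Level of the 38 tested sarcomere genes (rows, coloured and ordered by role) in the 5 RNA libraries (columns), as log2(CPM + 0.5) minus the mean of the 3 WT libraries for that gene. The columns WT 1 and WT 2 are mostly blue and the columns WT 3, Prdm16 1 and Prdm16 2 mostly red, and in 31 of 38 genes all of the last 3 lie above both of the first.

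The order of the libraries was shared by most members. WT replicate 1 was the lowest library for 29 of the 38 genes and WT replicate 2 for 8, while the highest was Prdm16 replicate 1 for 16, Prdm16 replicate 2 for 13 and WT replicate 3 for 8. WT replicate 3 lay above WT replicates 1 and 2 in 33 of the 38 genes, against 32.5% of all genes. Both Prdm16 libraries lay above WT replicates 1 and 2 in 33 of the 38, against 19% of all genes. WT replicate 3 and both Prdm16 libraries lay above WT replicates 1 and 2 in 31 of the 38, against 14% of all genes, a pattern described after it was seen. The ratio of WT replicate 3 to the mean of the other WT libraries had a median of 1.91 over the 38 genes and ran from 0.784 to 4.43. WT replicate 3 exceeded both Prdm16 libraries in 8 of them.

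These counts moved with single libraries. The 12 genes with an unadjusted p under 0.05 and higher values became 27 without WT replicate 3, against 2.84% of all genes then. Groups that did not overlap were then found for 33 of the 38, against 19%. The 12 became 7 without WT replicate 1 (1.68% of all genes) and 5 without WT replicate 2 (1.31%). They became 1 without Prdm16 replicate 1 (1.49% of all genes) and 4 without Prdm16 replicate 2 (0.213%). Those 2 fits, and the fit without both doubtful libraries, hold 1 Prdm16 library. Their spread between replicates comes from the WT libraries, and the lone Prdm16 library is assumed to vary like them. Without both doubtful libraries, with 2 WT libraries against 1, 14 sarcomere genes were past that limit, against 2.74%, and with the pair exchanged 4, against 4.15% of all genes. The median log2 fold change was 1.15 without them and 0.48 with them exchanged, and a positive value was found for 35 of 37 tested members (47.4% of all genes) and 35 of 38 (49.4%). Groups did not overlap in 35 of the 38 without the pair (35.2% of all genes) and in 7 with it exchanged (13.3%). No sarcomere gene was called in either fit, in which edgeR called 0.614% and 1.19% of all genes at an adjusted p under 0.05.

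**Figure D2:**
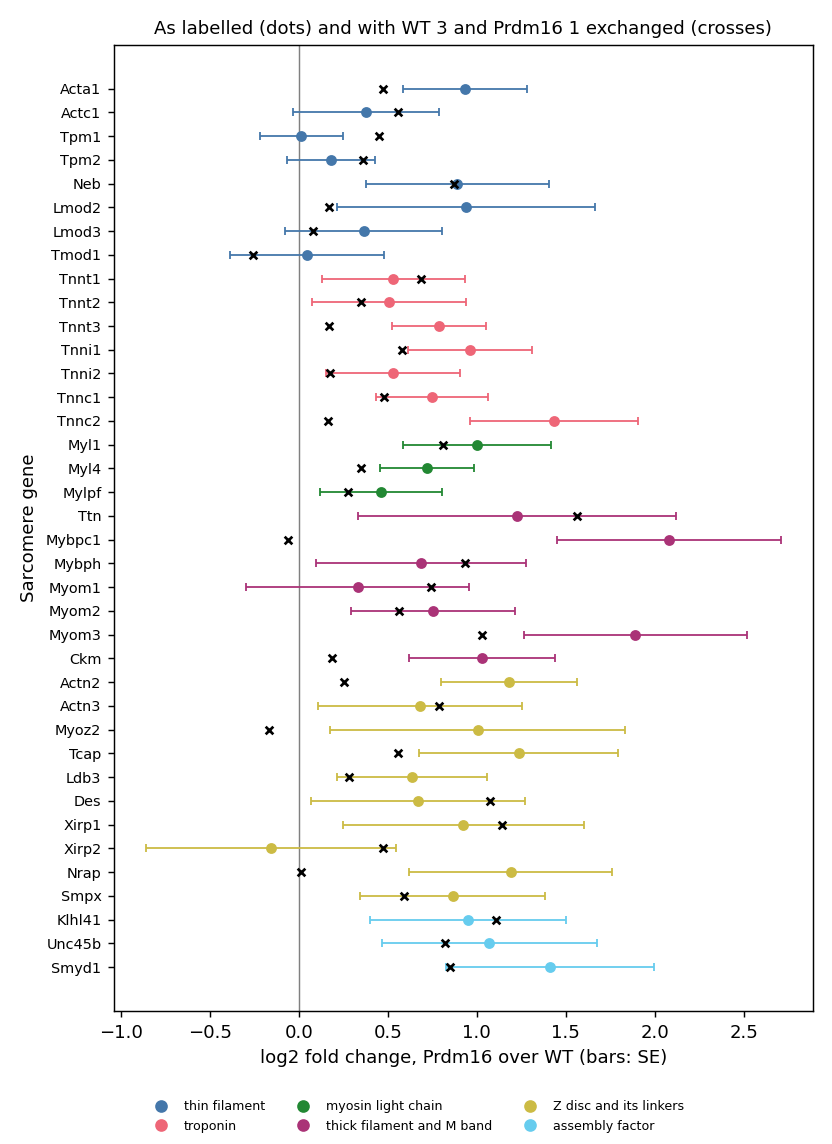
Log2 fold change of Prdm16 over WT for the 38 tested sarcomere genes, as labelled (dots, coloured by role, bars are the SE) and with WT replicate 3 and Prdm16 replicate 1 exchanged (crosses). As labelled, all dots but that of Xirp2 lie right of 0. With the exchange, the crosses of Tmod1, Mybpc1 and Myoz2 lie left of 0 and that of Xirp2 lies right of it.

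The promoters of some members are shown because genes of this class share binding motifs of muscle regulators. The shown starts lie at the outer edge of the annotated gene. Sequences are the 130 bases before the RefSeq start (GRCm38.p6), 5′ to 3′ on the gene's strand, with a matched motif in capitals. Acta1 (minus strand, chr8:123894776-123894905) holds a CArG box, the site of serum response factor, an MCAT motif (CATTCC), the site of TEAD factors, and a TATAAA motif. Actc1 (minus strand, chr2:114052876-114053005) holds a CArG box. Tnnc1 (plus strand, chr14:31208182-31208311) holds an MCAT motif on the opposite strand. Des (plus strand, chr1:75360162-75360291) holds the E box CAGCTG, a form that myogenic bHLH factors such as MyoD bind. Klhl41 (plus strand, chr2:69669990-69670119) holds a CAGCTG and a MEF2 site.
Acta1: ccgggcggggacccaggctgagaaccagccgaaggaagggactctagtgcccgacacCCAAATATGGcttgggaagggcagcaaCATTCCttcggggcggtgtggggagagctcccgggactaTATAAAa
Actc1: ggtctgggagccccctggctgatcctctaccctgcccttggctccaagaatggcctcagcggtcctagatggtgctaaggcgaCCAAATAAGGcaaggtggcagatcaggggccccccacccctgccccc
Tnnc1: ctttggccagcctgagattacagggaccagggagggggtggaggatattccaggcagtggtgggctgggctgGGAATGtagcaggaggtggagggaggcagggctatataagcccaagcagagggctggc
Des: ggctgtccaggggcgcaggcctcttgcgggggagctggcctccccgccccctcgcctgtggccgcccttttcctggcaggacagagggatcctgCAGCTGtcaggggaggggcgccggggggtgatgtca
Klhl41: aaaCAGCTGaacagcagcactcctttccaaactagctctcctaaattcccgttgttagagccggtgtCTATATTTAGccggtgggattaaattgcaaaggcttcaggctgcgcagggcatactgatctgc

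Among the members, 33 had a promoter entry, searched over 250 bases before the first listed start. Motifs were counted on both strands, except for TATAAA, which was searched on the strand of the gene. The E box form shown for Des was in 13 of 33 member promoters (39.4%), against 12.8% of 27025 promoters. The general E box, CANNTG, which includes that form, was in 27 of 33 (81.8%), against 66% of all. A MEF2 site was in 5 of 33 (15.2%), against 3.01%, and a CArG box in 5 of 33 (15.2%), against 1.4%. CATTCC was in 9 of 33 (27.3%), against 12.6%, and TATAAA in 2 of 33 (6.06%), against 8.12%. Among the 10388 promoters of genes that passed the expression filter, CAGCTG was in 11.7% and CANNTG in 56.5%. There a MEF2 site was in 1.63%, a CArG box in 1.17%, CATTCC in 10.7% and TATAAA in 3.99%. For TATAAA the member share rests on 2 promoters and lies between these 2 background shares, so it is not read as a difference. A match describes the letters in this window and is no evidence of binding.

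Among thin filament genes, the adult skeletal actin Acta1 had the smallest p. Acta1 had 51.8, 111 and 125 CPM in WT replicates 1, 2 and 3 and 178 and 189 CPM in Prdm16 replicates 1 and 2. The groups did not overlap and WT replicate 1 was the lowest. The WT libraries averaged 96.1 ± 39 CPM (SD, n = 3) and the Prdm16 libraries 183 ± 8.25 CPM (SD, n = 2). The log2 fold change and its SE were 0.93 ± 0.35 (edgeR, unadjusted p = 0.030), and with the 2 doubtful libraries exchanged the value was 0.47. Actc1, the cardiac actin that developing skeletal muscle also uses, had 45.7, 49.9 and 114 CPM in WT and 102 and 79.4 CPM in Prdm16. Here WT replicate 3 exceeded both Prdm16 libraries, and the log2 fold change was 0.38 ± 0.41 (SE). The muscle actins are near-identical in their coding sequence, so counts can be split between Acta1, Actc1 and smooth muscle actin. Tpm1, an alpha tropomyosin gene, had 511, 584 and 747 CPM in WT and 518 and 721 CPM in Prdm16 (log2 fold change 0.01 ± 0.23. SE) Its groups overlapped throughout. Over the 8 tested thin filament genes the median log2 fold change was 0.37, with 8 positive. An unadjusted p under 0.05 was found for 1, against 1.11% of all genes with a higher value. Both Prdm16 libraries lay above all WT libraries in 3, against 8.83% of all genes. Neb, the giant nebulin that lines the thin filament, had 21.8, 38.7 and 81.7 CPM in WT and 82.9 and 93.2 CPM in Prdm16, so that WT replicate 3 nearly reached the lower Prdm16 library. The others, the tropomyosin Tpm2, the leiomodins Lmod2 and Lmod3, which nucleate actin, and the capping protein Tmod1, had log2 fold changes between 0.05 and 0.94.

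All 7 troponin genes were tested and had positive values, with a median of 0.75. Troponin is the calcium switch of the thin filament: troponin C binds calcium, troponin I blocks myosin from actin and troponin T ties both to tropomyosin. An unadjusted p under 0.05 was found for 4 of them, against 1.11% of all genes with a higher value. The same number had both Prdm16 libraries above all WT libraries, against 8.83% of all genes. Tnnc2, the fast-fibre troponin C, had 1.73, 1.43 and 2.61 CPM in WT and 6.07 and 4.44 CPM in Prdm16. Its 5 counts of 18, 10, 28, 52 and 25 are few, and the log2 fold change was 1.43 ± 0.47 (SE; edgeR, unadjusted p = 0.017). With the exchange it was 0.17. Tnnc1, the slow and cardiac troponin C, had 25.6, 30.5 and 52.3 CPM in WT and 63 and 58.4 CPM in Prdm16. The step from WT replicate 3 to the Prdm16 libraries was smaller than that from the other WT libraries to WT replicate 3, and the log2 fold change was 0.75 ± 0.31 (SE), or 0.48 with the exchange.

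Tnni1, the slow-fibre troponin I, had 29.2, 51.2 and 73.2 CPM in WT and 96.7 and 103 CPM in Prdm16. The WT libraries averaged 51.2 ± 22 CPM (SD, n = 3) and the Prdm16 libraries 99.9 ± 4.62 CPM (SD, n = 2). The log2 fold change and its SE were 0.96 ± 0.35 (edgeR, unadjusted p = 0.025), and 0.58 was found with the exchange. Tnnt3, the fast-fibre troponin T, had 13.8, 21.2 and 18.5 CPM in WT and 30.5 and 30.9 CPM in Prdm16. It was the only one of the 12 members of smallest p whose WT replicate 3 did not exceed WT replicates 1 and 2. Its log2 fold change was 0.79 ± 0.26 (SE; edgeR, unadjusted p = 0.017), and 0.17 with the exchange. The remaining troponins Tnnt1 (slow), Tnnt2 (cardiac and developmental) and Tnni2 (fast) had log2 fold changes of 0.53, 0.51 and 0.53, and their groups overlapped. Some of the troponin I and T genes lie in pairs in the genome. On chromosome 1, Tnni1 (135783033 to 135810989) and Tnnt2 (135836315 to 135852268) were 25.3 kb apart, and on chromosome 7, Tnni2 (142441816 to 142444410) and Tnnt3 (142498771 to 142516213) were 54.4 kb apart.

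**Figure D3:**
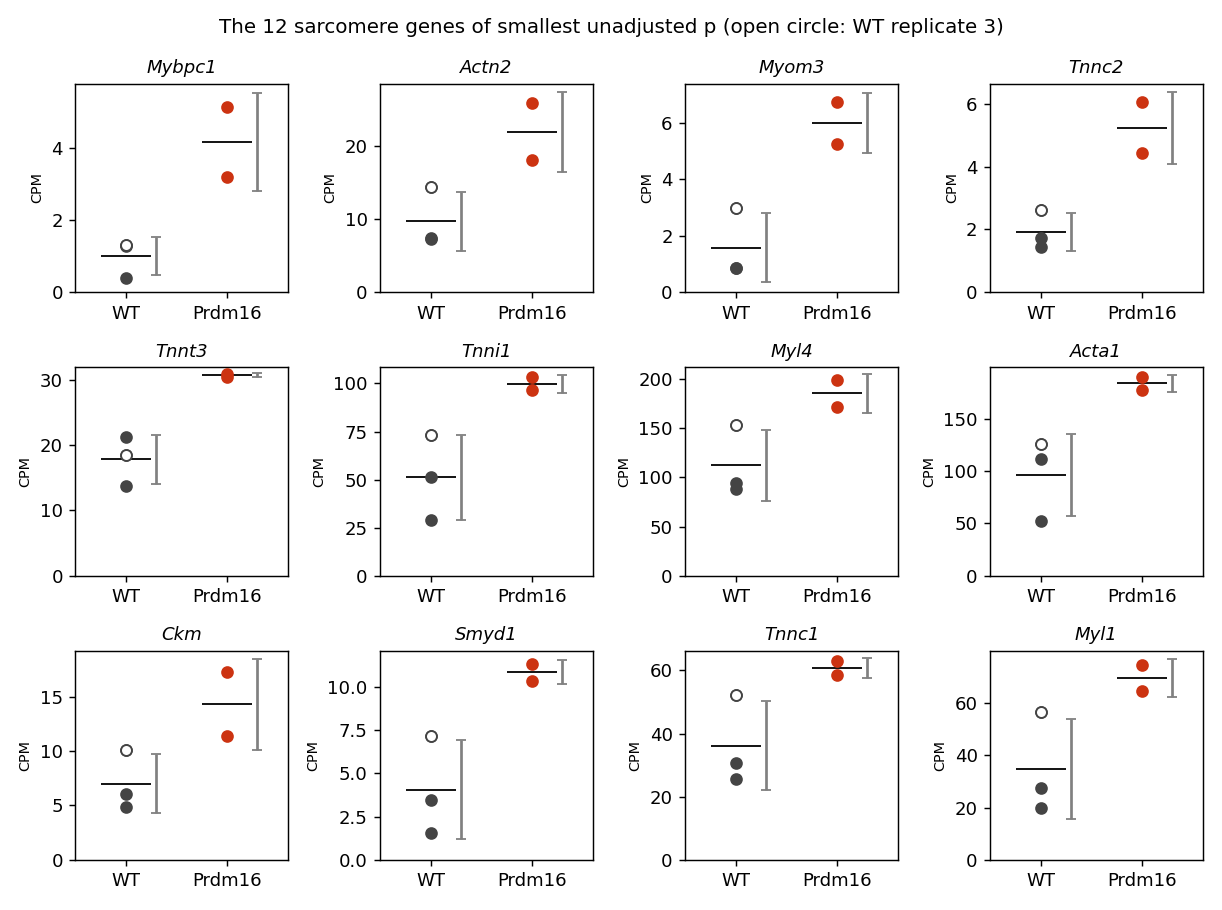
CPM of the 12 sarcomere genes of smallest unadjusted p in the WT libraries (grey, with WT replicate 3 as an open circle) and the Prdm16 libraries (red), with lines at the means and bars for the SD (n = 3 and n = 2). In each panel both red points lie above all WT points, and in 11 of 12 the open circle is the highest WT point.

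Myosin light chains bind the neck of the myosin head. Myl1, the fast essential light chain, had 20.01, 27.7 and 56.6 CPM in WT and 64.7 and 74.8 CPM in Prdm16 (log2 fold change 1.00 ± 0.41 SE; edgeR, unadjusted p = 0.045). Myl4, the embryonic and atrial light chain, had 88.6, 94.5 and 153 CPM in WT and 199 and 171 CPM in Prdm16. The WT libraries averaged 112 ± 35.8 CPM (SD, n = 3) and the Prdm16 libraries 185 ± 19.9 CPM (SD, n = 2). The log2 fold change and its SE were 0.72 ± 0.26. With the exchange the values were 0.35 for Myl4 and 0.81 for Myl1. In both genes WT replicate 3 lay between the other WT libraries and the Prdm16 libraries. Mylpf, the fast regulatory light chain, had 59.4, 95.7 and 139 CPM against 157 and 113 CPM, and its groups overlapped. Myl3, the slow and ventricular light chain, had 0 to 2 counts per library and was not tested.

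Among thick filament and M band genes all 7 tested members had positive values, with a median of 1.03. An unadjusted p under 0.05 was found for 3, against 1.11% of all genes with a higher value. Mybpc1, the slow myosin-binding protein C, had the smallest p of all members. It had 0.385, 1.29 and 1.31 CPM in WT and 5.14 and 3.20 CPM in Prdm16 (log2 fold change 2.08 ± 0.63 SE; edgeR, unadjusted p = 0.011). These CPM rest on 4, 9, 14, 44 and 18 counts, and with the 2 doubtful libraries exchanged the log2 fold change was -0.06. Myom3, a myomesin that crosslinks thick filaments at the M band, had 0.866, 0.860 and 2.99 CPM in WT and 5.25 and 6.75 CPM in Prdm16. Its log2 fold change was 1.89 ± 0.63 (SE) as labelled, and 1.03 with the exchange. Ckm, the muscle creatine kinase that regenerates ATP at the M band, had 6.06, 4.87 and 10.1 CPM in WT and 17.3 and 11.4 CPM in Prdm16 (log2 fold change 1.03, SE 0.41). With the exchange Ckm was at 0.18.

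Ttn, the giant elastic protein titin, spread most among the members with over 100 CPM in any library. It had 45.8, 104 and 332 CPM in WT and 266 and 486 CPM in Prdm16. WT replicate 3 lay above Prdm16 replicate 1, so the groups overlapped. The WT libraries averaged 161 ± 151 CPM (SD, n = 3) and the Prdm16 libraries 376 ± 156 CPM (SD, n = 2). The log2 fold change and its SE were 1.23 ± 0.89 (edgeR, unadjusted p = 0.234). Without the 2 doubtful libraries, which leaves 2 WT libraries against 1 and a spread from the WT pair, it was 2.68, with an edgeR adjusted p of 0.0872. With them exchanged it was 1.56. Mybph, Myom1 and Myom2 had log2 fold changes of 0.69, 0.33 and 0.75 with overlapping groups. Mybpc2, the fast myosin-binding protein C, had 0 to 2 counts per library and was not tested.

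At the Z disc 9 of 10 tested genes had positive values, with a median of 0.89. An unadjusted p under 0.05 was found for 1, against 1.11% of all genes with a higher value. That gene was Actn2, the alpha-actinin that crosslinks thin filaments, with 7.41, 7.31 and 14.4 CPM in WT and 25.9 and 18.1 CPM in Prdm16. The WT libraries averaged 9.70 ± 4.05 CPM (SD, n = 3) and the Prdm16 libraries 22.0 ± 5.51 CPM (SD, n = 2). The log2 fold change and its SE were 1.18 ± 0.38. With the exchange it was 0.26. Des, the intermediate filament protein desmin, which ties Z discs together and is also made by myoblasts and pericytes, had 27.9, 32.0 and 103 CPM in WT and 80.3 and 93.1 CPM in Prdm16. WT replicate 3 was the highest library for Des, and the log2 fold change was 0.67 ± 0.60 (SE). Tcap, which caps titin at the Z disc, had 1.06, 3.30 and 3.64 CPM against 5.95 and 6.57 CPM. Nrap, a scaffold of forming myofibrils, had 1.06, 1.72 and 2.71 CPM against 5.49 and 2.84 CPM. Both had groups that did not overlap and an unadjusted p above 0.05. Xirp2, an actin-binding Xin-repeat protein, was the tested member with a negative value (-0.16, SE 0.70). Actn3, Myoz2, Ldb3, Xirp1 and Smpx had log2 fold changes between 0.64 and 1.00. Myoz1 and Myoz3, calcineurin-binding Z disc proteins, had 10 counts at most in any library and were not tested, and the same holds for the thin filament cap Tmod4 with 8 at most.

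The assembly factors help fold and place sarcomere proteins. Smyd1, a muscle methyltransferase that works with myosin chaperones, had 1.54, 3.44 and 7.18 CPM in WT and 10.4 and 11.4 CPM in Prdm16. Its log2 fold change was 1.41 ± 0.59 (SE; edgeR, unadjusted p = 0.042), and 0.85 with the exchange. Unc45b, the myosin chaperone, had 1.73, 2.44 and 7.09 CPM against 8.29 and 7.64 CPM. Klhl41, a kelch protein that stabilises nebulin, had 1.73, 2.58 and 4.85 CPM against 4.32 and 7.64 CPM. All 3 had WT replicate 3 well above WT replicates 1 and 2, and their median log2 fold change was 1.07.

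Isoforms of fast, slow and developing muscle all had positive medians. The 6 tested fast-fibre isoforms had a median log2 fold change of 0.73, from 0.46 to 1.43. The 5 slow-fibre isoforms had a median of 0.96, from 0.53 to 2.08. For Actc1, Tnnt2 and Myl4, the isoforms of developing muscle, the median was 0.51, from 0.38 to 0.72. A difference between these classes was not tested.

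The summed levels of the striated myosin heavy chains, the calcium genes and the muscle regulators were also lowest in WT replicate 1, followed by WT replicate 2. Of the striated myosin heavy chains 4 of 7 were tested, all with positive values, and Myh3, the embryonic chain, had 34.3, 45.0 and 85.3 CPM in WT and 156 and 114 CPM in Prdm16 (log2 fold change 1.30, SE 0.38). Of 8 genes of calcium release and storage 6 had positive values, against 50.1% of all genes. An unadjusted p under 0.05 was found for 4 of them, against 1.11% of all genes with a higher value. The muscle regulators and fusion genes were summed to 65.3, 95.6 and 222 CPM in WT and 194 and 155 CPM in Prdm16, with 4 of 5 tested members positive and 0 at an unadjusted p under 0.05. In all 5 of them WT replicate 3 and both Prdm16 libraries lay above WT replicates 1 and 2. Myog, the regulator that starts terminal differentiation, had 31.7, 54.9 and 130 CPM in WT and 120 and 87.2 CPM in Prdm16. Myod1, the regulator that commits cells to muscle, had 5.10, 8.60 and 29.4 CPM against 12.6 and 15.98 CPM. Pax7, the marker of muscle stem cells, had 0, 0 and 11 counts in WT and 1 and 1 in Prdm16. The part of these muscle cell markers in the sarcomere result was not tested.

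**Figure D4:**
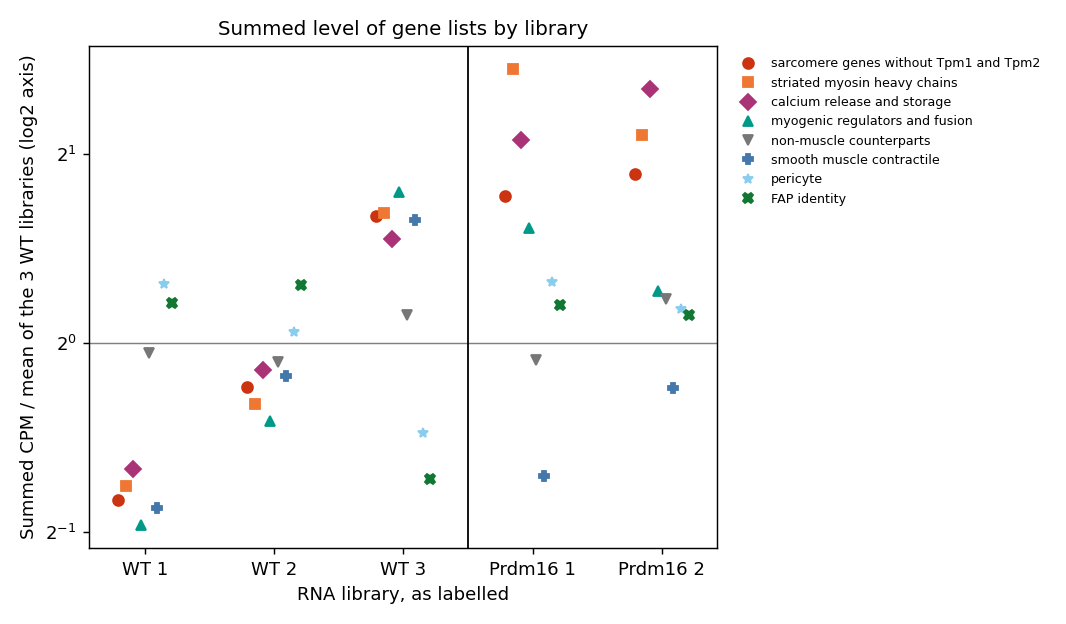
Summed CPM of each gene list in the 5 RNA libraries, divided by the mean of the 3 WT libraries, on a log2 axis. The sarcomere genes without Tpm1 and Tpm2 run from 0.562 in WT 1 to 1.86 in Prdm16 2. In WT 3 they are at 1.59 and the muscle regulators at 1.74. In Prdm16 1 and 2 they lie above the muscle regulators, at 1.715 and 1.856 against 1.523 and 1.211. The non-muscle counterparts stay between 0.931 and 1.17.

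The non-muscle counterparts of sarcomere proteins, such as Actb, Actn1, Tpm4 and Myl6, had a median log2 fold change of 0.09, with 8 of 12 positive and 0 at an unadjusted p under 0.05. Smooth muscle contractile genes had 1 of 7 tested members with a positive value, 0 of 7 at an unadjusted p under 0.05 and a median of -0.67. Their sum was 195 to 558 CPM in WT, highest in WT replicate 3, and 219 and 302 CPM in Prdm16. Pericyte genes summed to 344 to 594 CPM in WT and 542 and 597 CPM in Prdm16, with 4 of 6 tested positive and 0 at an unadjusted p under 0.05. Myoblast surface and adhesion markers summed to 629 to 753 CPM in WT and 635 and 667 CPM in Prdm16, with 4 of 6 positive and 0 at that limit. The sum hides a split. In 3 of the 6, Cdh15, Megf10 and Itga7, WT replicate 3 and both Prdm16 libraries lay above WT replicates 1 and 2 (14% of all genes). Cdh15 had 5.87, 5.30 and 20.6 CPM in WT and 17.0 and 8.53 CPM in Prdm16. Vcam1, Sdc4 and Ncam1 did not share that order. The sum of the FAP identity genes was lowest in WT replicate 3, at 3607 CPM. It was 6868 and 7356 CPM in the other WT libraries and 6835 and 6588 CPM in Prdm16. Cd34 and Osr1 did not share that order and were not lowest in WT replicate 3. Of the FAP identity genes 6 of 12 were positive. The stem and progenitor surface marker Cd34 was the 1 higher at that limit (0.51, edgeR, unadjusted p = 0.017). Cardiomyocyte markers were near 0: Nppa and Myl7 had 0 counts in every library, Myh6 1 count in all, and the list summed to at most 5.02 CPM. Macrophage genes summed to 5.29 to 5.88 CPM in WT and 5.49 and 6.93 CPM in Prdm16, with Adgre1 at 0 and 1 of 2 tested positive and 0 at that limit. Endothelial genes summed to 4.52 to 6.16 CPM in WT and 7.47 and 5.51 CPM in Prdm16, with Tie1 at 0 and 1 of 3 tested positive. That gene, the endothelial cadherin Cdh5, had a log2 fold change of 1.34 (edgeR, unadjusted p = 0.028).

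Among the 43 sarcomere genes, the authors' deposited table gave 22 an adjusted p and called 0 up, against 1.97% of all genes with an adjusted p. The authors' deposited table gave 36 of the 43 a log2 fold change above 0 and 4 one below 0, and listed Myl3, Mybpc1 and Nrap at 0. Des had the largest there, at 0.68, with an adjusted p of 0.394 in the authors' deposited table. The grouping of that table is the exchanged one described above. With the same grouping edgeR gave 1.07 for Des. For Ttn it gave 1.56, where the authors' table lists 0.12. The authors' log2 fold changes are thus not compared in size with those as labelled.

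Most sarcomere genes, like most genes located in the annotation, lay outside the domains of both chromatin marks. All 43 were located in the RefSeq annotation (GRCm38.p6), on 16 chromosomes. H3K9me2 domains held at least 0.5 of the gene body of 5, 4 and 5 members in WT replicates 1, 2 and 3 and of 5, 5 and 3 in Prdm16 replicates 1, 2 and 3. The means of 4.67 and 4.33 did not differ beyond the spread (exact permutation test, two-sided, p = 1, where 0.1 is the smallest p possible). These counts are 6.98% to 11.6% of members. With the domains scored at or above their library's median alone, the means were 3.67 and 1.67, with the smallest possible exact permutation p of 0.1. The share of all located genes in these higher-scoring domains was not computed. Whether that drop is particular to the members was therefore not tested. Among 13577 located genes that passed the expression filter or were members, the shares in all domains were 4.79%, 2.73% and 3.7% in WT and 2.61%, 3.39% and 2.94% in Prdm16. Among all located protein-coding genes they were 14.4%, 9.08% and 10.8% in WT and 9.1%, 8.91% and 6.63% in Prdm16. In each H3K9me2 library the member share was above that of the filtered genes. Against all protein-coding genes it was below in WT replicate 1 and above in the other libraries. These differences were not tested. No H3K9me2 library held 36 of the 43 members (83.7%), nor 93.1% of the located genes. LaminB1 domains held 0 of the 43 in either genotype. Among the genes that passed the filter 1.5% in WT and 0.604% in Prdm16 lay in LaminB1 domains, and among all protein-coding genes 14.7% and 8.98%. LaminB1 had no replicates.

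**Figure D5:**
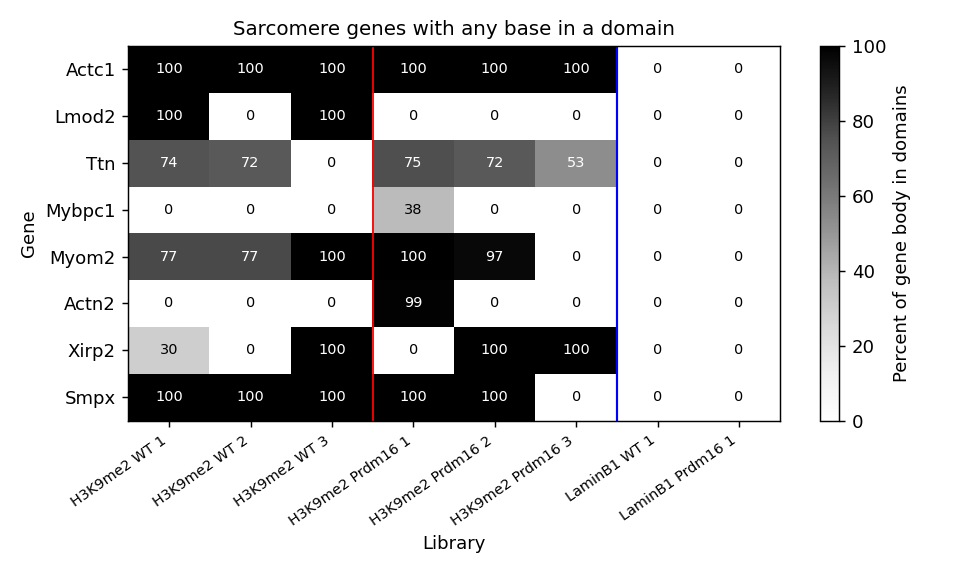
Percent of the gene body in domains for the 8 sarcomere genes with any base in a domain (rows) in the 6 H3K9me2 and 2 LaminB1 libraries (columns). Actc1 is fully covered by H3K9me2 in all 6 libraries, no gene is covered in all libraries of one genotype and none of the other, and both LaminB1 columns are 0.

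Actc1 (chromosome 2, 114047282 to 114052875) was the member covered in all 6 H3K9me2 libraries, at 100% of its body, as were 0.663% of located genes. It was transcribed in the same kind of culture, at 45.7 to 114 CPM. Ttn (chromosome 2, 76703980 to 76982557) had 74.3%, 72.2% and 0% of its body in domains in WT and 75.4%, 72.2% and 52.8% in Prdm16. Myom2 (chromosome 8, 15057653 to 15133420) and Smpx (X, 157698973 to 157752591), a small muscle protein, were in domains in 3 WT and 2 Prdm16 libraries. Xirp2 was in domains in 1 and 2 of them, Lmod2 in 2 WT libraries alone and Actn2 in Prdm16 replicate 1 alone. Mybpc1 had 38.2% of its body in a domain in Prdm16 replicate 1. The other 35 members had no base in a domain of any library. No member was covered in all libraries of one genotype and none of the other. Among located genes 0.125% were covered in all WT libraries alone and 0.0663% in all Prdm16 libraries alone.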

How the data were processed

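The deposited count table held raw counts per gene, whole numbers, in 5 RNA libraries; per the labels, libraries of polyadenylated RNA were made by SMART-seq2. Per the submitters' processing notes, Bowtie 1.2.2, STAR 2.7, featureCounts and DESeq2 1.20 were used with mm10, dm6 and GRCm38; the notes used here give no roles. The authors' deposited comparison table held a mean normalized signal, a log2 fold change, and a p-value with an adjusted p-value. The deposited domain lists held a score per domain from the authors, 1 list per library, made with a caller not given in the sources used here.

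Counts were tested for genotype with edgeR 4.0.16 in R 4.3.3 over all 15240 genes that passed its default expression filter (trimmed mean of M-values, robust quasi-likelihood, two-sided, Benjamini-Hochberg, threshold 0.05). DESeq2 1.42.0 and limma-voom (limma 3.58.1) were alternatives, and fits were tested on simulated data. Domains were overlapped with gene bodies in Python 3.11.15 with numpy 2.4.6 and pandas 2.3.3. Named genes were the 12 members of smallest p, the member of highest mean CPM in each role group, Des, Actc1 and Acta1. That choice replaced one by level per kb of exon, since exon lengths were not used here, and levels are not compared between genes. Neb, Mylpf, Tcap, Nrap, Unc45b and Klhl41 were given per library after their values were seen. The members and lists were chosen with earlier results of these data known. The 8 input samples were not analysed here. Replicate numbers of H3K9me2 libraries did not pair them (correlations of deviations over 30 kb bins of -0.12, -0.34 and 0.09). Depth of the domain libraries is unknown.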

Additional observations from a re-analysis of the deposited data

How the results depend on the processing

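Over all results, 271 of 297 alternative values stayed the same: a tested value in direction and side of the threshold, a count within 1.5 times, and the median log2 fold change within 0.51, the pooled SD of the library medians. For named genes, with 202 of 208 the same, this mostly means an unchanged sign, since few adjusted p values came near the threshold. Sizes could change: Tnnc2 went from 1.43 to 0.17 with the exchange and counted as the same. Of 89 counts and medians, 69 stayed the same, 19 moved and 1 reversed. The count of genes called by edgeR, 0, became 1 with upper-quartile scaling, 2 with DESeq2, 25 with no filter on low counts, 93 without both doubtful libraries and 182 with them exchanged. Leaving out 1 library gave 0 to 4 called genes, 1 to 27 sarcomere genes past an unadjusted p of 0.05 (0.213% to 2.84% of all genes), 33 to 37 with a positive value, a median of 0.54 to 1.32, and 19 to 33 with no overlap (15.2% to 25.9% of all genes; without Prdm16 replicate 1, 22 of 38 against 25.9%), with 0 members called throughout. The count of genes without overlap, 18, was 35 without both doubtful libraries and 7 with them exchanged, and 4 members then had an unadjusted p under 0.05. With a replicate block, which pairs samples that share only a number, 1 gene was called, the member Ttn (log2 fold change 2.38, edgeR adjusted p = 0.016), 27 members passed an unadjusted 0.05 (2.84% of all genes), and the median was 1.37. With a replicate block the H3K9me2 difference was -0.333 genes (exact permutation, p = 1). That difference ran from -0.667 to 0.333 genes when 1 library was left out, reversing without Prdm16 replicate 3. Tpm1 turned negative with no filter (-0.0100), without WT replicate 1 (-0.12), WT replicate 2 (-0.02) or Prdm16 replicate 2 (-0.24), and was 0.20 without Prdm16 replicate 1. Mybpc1 was -0.0594 with the exchange; the cause was not tested. The part of depth in the values of members with few counts was not tested.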

Other observations

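Ratios of paired isoforms within a library need no scaling between libraries. The count of Actc1 over that of Acta1 was 0.881, 0.449 and 0.911 in WT replicates 1, 2 and 3 and 0.575 and 0.419 in Prdm16 replicates 1 and 2, so the genotypes overlapped. Tnnt2 over Tnnt3, the cardiac over the fast troponin T, was 1.45, 2.25 and 3.31 in WT and 2.23 and 1.74 in Prdm16, highest in WT replicate 3. The embryonic light chain Myl4 over the fast Myl1 was 4.43, 3.41 and 2.71 in WT and 3.08 and 2.29 in Prdm16. The fast Tnnc2 over the slow Tnnc1 was 0.0677, 0.0469 and 0.05 in WT and 0.0963 and 0.0760 in Prdm16, with both Prdm16 libraries above all WT libraries. With WT replicate 3 and Prdm16 replicate 1 exchanged, the groups overlapped for Tnnc2 over Tnnc1. The muscle Actn2 over the non-muscle Actn1 was 0.0574, 0.0702 and 0.127 in WT and 0.261 and 0.122 in Prdm16, so that WT replicate 3 exceeded Prdm16 replicate 2. Mylpf over Myl1, the regulatory over the essential fast light chain, was 2.97, 3.46 and 2.45 in WT and 2.42 and 1.51 in Prdm16, with both Prdm16 libraries below all WT libraries. Of 12 such ratios computed, 9 overlapped between the groups as labelled, Tnni2 over Tnni1 among them, and 3 did not: those of Tnnc2, Mylpf and Acta1 over Actb. With the exchange 10 overlapped, and the 2 that did not were other ones, Ttn over Neb and Myl4 over Myl1. These ratios were given no test. How often ratios of other gene pairs separate the same libraries was not computed, so the counts without overlap are not read as shifts of isoforms.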
